A study of Caenorhabditis elegans with 12 samples.

Results

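Early Caenorhabditis elegans embryos that lacked both LIN-65 and MET-2 were compared with wild-type N2 embryos, gene by gene. The members are the genes of the deposited double-mutant table whose log2 ratio to N2, averaged over the 3 double-mutant libraries, was at least 1 (2-fold higher) or at most −1 (2-fold lower). All 2638 rows of that table met the rule, 2508 on the higher side and 130 on the lower side, out of 2949 genes in the 3 deposited tables together. The study holds 12 libraries of total RNA, 3 from each of 4 strains. These are the wild type N2 (Bristol), a met-2 mutant of genotype met-2(n4256) III, a lin-65 deletion mutant written lin-65(delta) I, and the double mutant that combines both alleles. The mutant strains carry no other allele by their labels. Embryos had between 1 and 300 cells, before the bean stage, and came from worms collected at 20 °C, 60 to 65 h after synchronization as L1 larvae, an interval that differed between strains. The 3 libraries of a strain are given as independent biological replicates, each made from 5 µg of total RNA after depletion of ribosomal RNA. Both lesions are heritable alleles carried by every cell, and no strain with either gene restored is among the samples.

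MET-2 is the worm counterpart of the mammalian methyltransferase SETDB1 and places methyl groups on lysine 9 of histone H3, a mark of silent chromatin. LIN-65 is a largely unstructured protein that binds MET-2 and helps it to gather in nuclear foci. In worms this chromatin lies mainly on chromosome arms, is held at the nuclear envelope and covers repeats and genes of tissues that have not yet formed. The double mutant removes the enzyme and its cofactor together.

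The values behind each ratio could be read back as whole sequencing reads. Every deposited value equalled the log2 of a mutant level plus 1 over an N2 level plus 1, and all 2949 genes gave whole read numbers to within 0.01 read for each library and for the N2 baseline. The added 1 was worth 7.38, 7.74 and 7.76 reads in the 3 double-mutant libraries and 9.29 reads in N2, which sets their relative depth. N2 entered each gene as 1 read number, the same for all 9 mutant columns; whether it came from 1 library or from several summed is not given in the sources used here. An SD printed here is therefore the spread of 3 double-mutant libraries and holds no N2 error, and no test against N2 was made. Because of the added constant, a deposited ratio understates the change of a gene with few reads, so the ratio of scaled reads without it is given for leading genes, with an exact 95% interval that covers counting error only. In whole embryos, more cells of a type and more RNA per cell cannot be told apart.

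**Figure D1:**
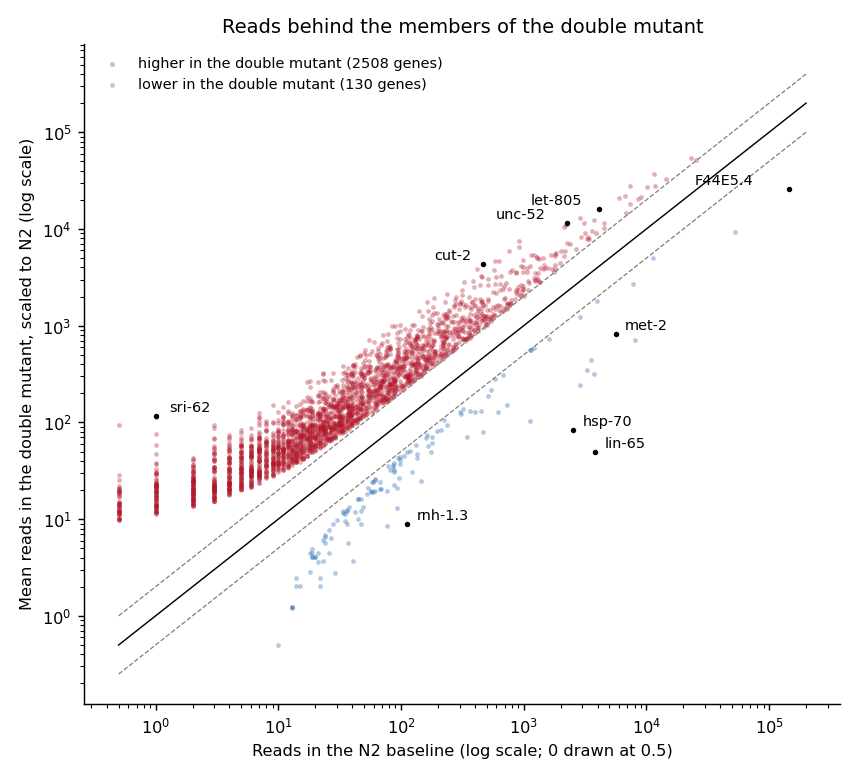
Reads of each member in the N2 baseline (horizontal, log scale) against the mean of the 3 double-mutant libraries scaled to N2 (vertical, log scale), 1 point per gene. The solid line marks equal levels and the dashed lines 2-fold differences. Higher members (2508, red) cover N2 levels from 0, drawn at the left edge, to 25475 reads. The 130 lower members (blue) start at 10 reads, the fewest that can give −1 with the added constant.

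The mutated genes came out as labelled. The lin-65 transcript (WBGene00022149) had 3821 reads in N2 and 32, 47 and 43 in the double-mutant libraries, with log2 ratios of −6.27, −5.86 and −5.98, the lowest mean of all members. The met-2 transcript (WBGene00019883) had 5601 reads in N2 and 665, 704 and 654 in the double mutant, with ratios of −2.73, −2.71 and −2.82. In scaled reads lin-65 kept 0.0130 and met-2 0.147 of the N2 level. No other of the 27 listed heterochromatin and nuclear envelope factors was a member in either direction.

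Higher members outnumbered lower ones, by 1870 to 130 where N2 had at least 10 reads, the range open to both. Their means ran from 1.00 to 3.60 with a median of 1.58 and quartiles of 1.28 and 2.01, and 1085 of them lay below 1.5. On this deposited scale 639 genes were past 4-fold, and 49 had a mean of at least 3. In scaled reads without the added constant, 1375 of the 2465 higher members with an N2 read were above 4-fold, and their median ratio was 4.31 against a deposited 3.01. All 2508 were above 0 in each of the 3 libraries, and 2176 were at or past 1 in each. The libraries gave nearly the same picture, with medians of 1.60, 1.59 and 1.61 and a median SD of 0.11. Baseline levels were low: the median higher member had 27 N2 reads, 638 had fewer than 10 and 43 had none, while 596 had at least 100. Members under 10 N2 reads had a median of 1.46 with a median SD of 0.19, and those with at least 100 had 1.57 with an SD of 0.07. With N2 placed at the upper end of its counting interval, 1672 of the 2508 still reached 1. Of the higher members 2422 matched annotated protein-coding genes, which is 12.1% of the 19985 in the Ensembl 115 annotation, 20 matched pseudogenes and 66 had no match. That 12.1% is the background for the shares of gene lists that follow, and since the rule itself used this contrast those shares are descriptions.

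Lower members were few and smaller in size. Their means had a median of −1.22, 98 of the 130 lay above −1.5, and 19 were at or below −2. All 130 were below 0 in each library and 73 were at or past −1 in each. N2 levels were higher here, with a median of 83.5 reads and a range of 10 to 145852. Because the added constant was worth 9.29 N2 reads, a gene under 10 N2 reads cannot reach −1. The floor of 10 therefore follows from the scale, which also raises this median. With N2 at the lower end of its counting interval 56 still reached −1. Protein-coding matches numbered 114, or 0.57% of the annotation, with 8 pseudogenes and 1 long intergenic noncoding RNA.

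Members at the thresholds differed little from genes beside them. Just inside on the higher side were WBGene00017067 with ratios of 0.97, 1.23 and 0.80 and C01H6.4 with 0.95, 0.94 and 1.11. Just outside were Y48B6A.5 with 1.46, 0.75 and 0.79 and btb-20, a BTB-domain gene, with 0.91, 1.15 and 0.93. On the lower side F39F10.3 (−1.040, −0.962 and −1.004) and ZC302.3 (−0.98, −0.89 and −1.13) were just inside, and F46C3.7 (−0.94, −1.12 and −0.88) and WBGene00001963 (−1.14, −0.98 and −0.80) just outside. The 3 members that varied most between libraries were sssh-1 (0.21, 1.66 and 1.33), F47B8.5 (1.38, 1.93 and 0.65) and the C-type lectin clec-65 (0.34, 1.55 and 1.27), and they had 2, 2 and 7 N2 reads. A further 22 genes with a mean of at least 1 and 1 gene with a mean at or below −1 had values only in the tables of the single mutants and are not counted as members.

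Among the 12 highest means 3 belonged to genes with at most 1 N2 read and 9 to genes with 17 to 186. The chemoreceptor-family gene sri-62 had 1 N2 read and 86, 96 and 102 double-mutant reads, a deposited ratio of 3.60 ± 0.08 (mean and SD, n = 3) and a scaled read ratio whose 95% interval ran from 20.5 to 4571. Y37E11AL.1 also had 1 N2 read, against 83, 92 and 107, with a mean of 3.58 ± 0.14. ZK1025.3 had no N2 read and 78, 72 and 84 reads in the double mutant, which is at least 31.7-fold higher against a floor of 3 reads in N2. The lower end of its exact 95% interval, which allows slightly more N2 reads than that floor, was 25.6. Next came mihp-1 with 55 N2 reads against 531, 592 and 630 (3.48 ± 0.09), and all its libraries were far above N2. Also among the 12 were 2 hedgehog-related genes. The groundhog-like gene grl-7 had 85 N2 reads against 799, 828 and 805 (3.40 ± 0.03), and the warthog gene wrt-1 had 186 against 1527, 1585 and 1699 (3.33 ± 0.05). The other 6 of the 12 highest means were F13B12.4, C02E7.6, C14A4.9, F09F9.2, R02E4.3 and F33D4.6, with means from 3.32 to 3.38 and N2 reads from 17 to 162.

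**Figure D2:**
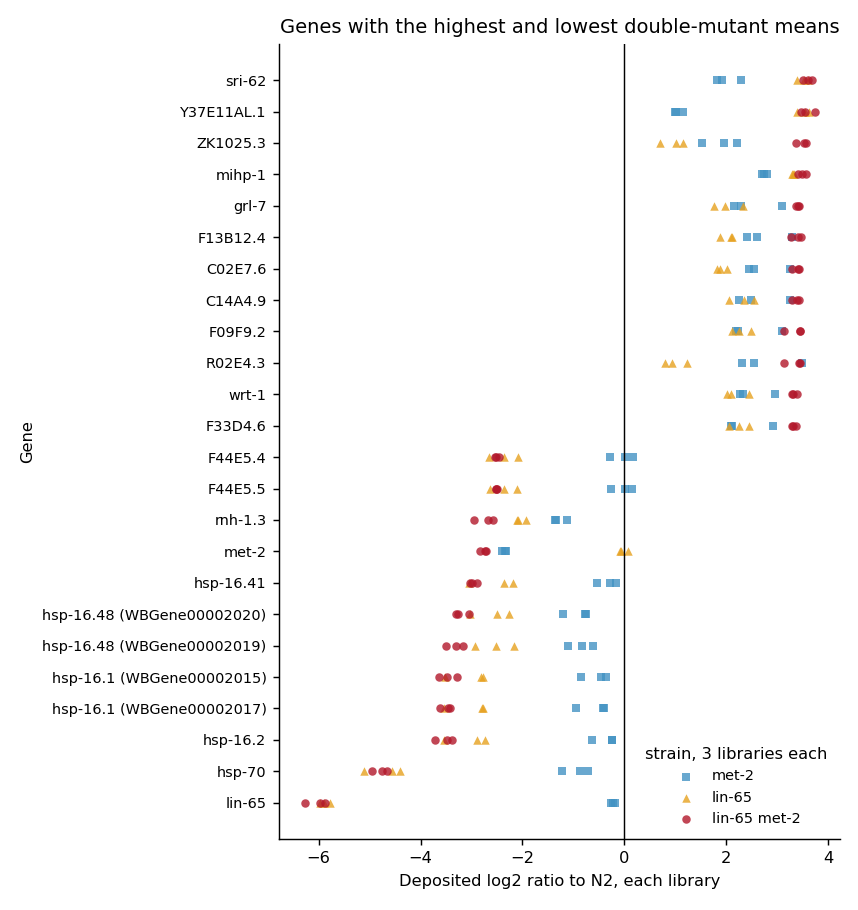
Deposited log2 ratios to N2 (horizontal) of the 12 members with the highest and the 12 with the lowest mean in the double mutant, each of the 9 mutant libraries shown as a point. Double-mutant libraries (red circles) lie close together for every gene; for hsp-70 and the hsp-16 genes lin-65 libraries (orange triangles) lie beside them or somewhat nearer to 0 and met-2 libraries (blue squares) nearest to 0.

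Genes of the cuticle and its precursor matrix were widely represented among higher members. The epidermis of the late embryo builds an apical matrix of zona pellucida proteins, lipocalins and finally collagens, and renews it at each molt. Of the annotated cuticle collagens 62 of 177 were higher (35.03%, median 1.75) and 1, col-171, was lower. The collagen col-165 had 584 N2 reads against 3547, 4143 and 3778, ratios of 2.91, 3.07 and 2.93. Its neighbours in rank were col-74 at 2.94 ± 0.09 and col-131 at 2.64 ± 0.23. The body-shape collagens sqt-3 and dpy-17, already abundant in N2 with 11633 and 22938 reads, had means of 1.68 and 1.24. Cuticlins and other zona pellucida proteins gave 17 of 40 (42.5%), led by cut-6, cut-2 and cut-3. The cut-2 transcript had 464 N2 reads against 4006, 3519 and 3222, a scaled ratio of 9.41 (95% interval 8.57 to 10.3). Precuticle lipocalins and leucine-rich repeat proteins gave 8 of 11 (72.7%), with lpr-4 at 3.04 ± 0.03 and lpr-5 at 2.57 ± 0.05.

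Families of secreted signals and remodelling enzymes, and lists of epidermal genes, followed. In which tissue their transcripts lay was not measured in these whole embryos. Hedgehog-related proteins, which in worms are mostly matrix-associated molecules, gave 25 of 59 (42.4%) with a median of 2.04, although 10 of these 25 had fewer than 10 N2 reads. Patched-related membrane proteins gave 18 of 29 (62.1%); ptr-16 stood at 3.15, 3.02 and 3.05 and ptr-4, with 582 N2 reads, at 2.22, 2.10 and 2.29. Among molting genes 9 of 15 were higher, including mlt-9 (124 N2 reads against 832, 842 and 807). Astacin metalloproteases, which process collagen and matrix, gave 9 of 40, on a median of only 5 N2 reads. Attachment and junction genes of the epidermis gave 7 of 17 from a far higher baseline, a median of 1121 N2 reads. The myotactin gene let-805 had 4074 N2 reads against 13383, 12475 and 13239, and mup-4 had 1121 against 3396, 3293 and 3579. Of 11 epidermal transcription factors 3 were higher, the Grainyhead factor grh-1 at 2.89 ± 0.06, bed-3 at 2.15 ± 0.12 and blmp-1 at 1.94 ± 0.12. Of the 9 astacins 4 still reached 1 with N2 at the upper end of its counting interval.

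Muscle filament and membrane genes had the largest shares of higher genes among the lists. Of the genes for thick and thin filaments 28 of 37 were higher (75.7%), with a median of 1.96 and a range of 1.10 to 2.68, and all 28 were past 1 in every library. Paramyosin, unc-15, had 577 N2 reads against 3058, 3140 and 3015, ratios of 2.72, 2.69 and 2.63 and a scaled ratio of 6.48 (95% interval 5.96 to 7.07). The body wall myosin heavy chains unc-54 and myo-3 had 2124 and 2871 N2 reads and means of 2.30 ± 0.08 and 2.16 ± 0.04. Tropomyosin, lev-11, stood at 2.39, 2.53 and 2.42 and the LIM-domain gene lim-9 at 2.44, 2.56 and 2.53. Dense bodies, which anchor the filaments as Z-lines do in vertebrates, gave 8 of 16, with vinculin deb-1 at 2.05 ± 0.09 and alp-1 at 2.34 ± 0.07. Perlecan, unc-52, a matrix protein beneath muscle, had 2269 N2 reads against 9632, 9364 and 9215. Membrane and calcium genes gave 14 of 18 (77.8%): the calcium channel subunits egl-19 and unc-36 stood at 2.48 ± 0.10 and 2.33 ± 0.12, and calsequestrin csq-1 at 2.23 ± 0.04. None of the 7 muscle transcription factors, which include hlh-1 and unc-120, was a member. Basement membrane genes gave 12 of 25, with hemicentin him-4 at 2.69 ± 0.03, fibulin fbl-1 at 2.22 ± 0.17 and the type IV collagens emb-9 and let-2 at 1.70 ± 0.06 and 1.91 ± 0.07.

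Structural genes of the pharynx and intestine were also well represented. Pharyngeal structural genes gave 12 of 21 (57.1%) with the highest median of the tissue lists, 2.34. Troponin C of pharyngeal muscle, tnc-2, had 7 N2 reads against 78, 97 and 99, and the pharyngeal myosin myo-1 had 218 against 1089, 1057 and 1039. The intermediate filament gene ifa-1 stood at 2.63 ± 0.09, whereas pqn-75, a gene of pharyngeal gland cells, was lower at −1.173, −1.129 and −1.203 from 321 N2 reads. Glutamine-asparagine rich abu and pqn genes, many of them expressed in the pharyngeal cuticle, gave 17 of 70 with a median of 2.34, led by abu-14 at 3.01 ± 0.08 and abu-13 at 2.96 ± 0.12. Of 9 pharyngeal transcription factors 4 were higher, among them peb-1 at 2.002 ± 0.04 and ceh-24 at 1.70 ± 0.19. Intestinal structure and transport genes gave 14 of 25 (56.0%), headed by the peptide transporter pept-1 (41 N2 reads against 327, 304 and 335) and the lumenal intermediate filament genes ifp-1 at 2.62 ± 0.04 and ifd-1 at 2.41 ± 0.13. Digestive proteases gave 20 of 57. The neprilysin nep-17 stood at 3.13, 2.99 and 3.06 and the aspartyl protease asp-1 had 450 N2 reads against 2789, 2775 and 2535, while nep-23 was lower at −1.38 ± 0.26. None of the 7 intestinal transcription factors, end-1, end-3, elt-2 and elt-7 among them, was a member, and none has a row in the tables. Of the 4 higher pharyngeal factors 2 still reached 1 with N2 at the upper end of its counting interval.

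Many genes of neuronal transmission, excitability and sensory cilia were higher. Synaptic vesicle and release genes gave 19 of 33 (57.6%). The active zone protein cla-1 had 93 N2 reads against 662, 664 and 750, ratios of 3.04, 2.98 and 3.15, and the vesicle priming factor unc-13 had 77 against 479, 489 and 529. Genes for the synthesis and transport of transmitters gave 19 of 39 (48.7%), with glutamate decarboxylase unc-25 at 2.06 ± 0.11, the acetylcholine receptor chaperone ric-3 at 2.33 ± 0.12 and lev-10, which clusters these receptors at muscle, at 2.14 ± 0.01. Ligand-gated channel subunits gave 35 of 106 (33.02%), led by lgc-22 at 3.04 ± 0.02 and the glutamate receptor glr-1 at 2.46 ± 0.04, and 22 of the 35 still reached 1 with N2 at the upper end of its counting interval. Potassium channels gave 20 of 72 higher (27.8%), with twk-11 at 3.01 ± 0.07, and 1 lower, the abundant kqt-1 with 2893 N2 reads against 970, 1043 and 1031. Gap junction innexins gave 9 of 25, with unc-9 at 2.74 ± 0.18. Cilium and dye-filling genes, needed in sensory neurons for the transport of particles along the axoneme, gave 45 of 73 (61.6%), mostly from few N2 reads (median 24). Of these mksr-2 stood at 2.68, 2.52 and 2.68, tub-1 at 2.82, 2.31 and 2.59 and dyf-6 at 2.25, 2.29 and 2.40.

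Shares of neuropeptide, receptor and guidance lists ranged widely about the 12.1% of all genes. Neuropeptides and insulins, a list that by symbol also holds the antimicrobial peptide gene nlp-29, gave 27 of 145 (18.6%). These 27 had a median of 6 N2 reads, and 9 of them had at least 10 N2 reads. The highest was ins-1 with 4 N2 reads against 44, 38 and 54. Receptors for peptides and amines gave 18 of 127 (14.2%); the serotonin receptor ser-4 had 1 N2 read against 61, 65 and 62. Chemoreceptors, by far the largest family examined, gave 12 of 1310 higher (0.916%) and 8 lower, and 1 of the 12 had at least 10 N2 reads. That gene, srr-4, had 86 N2 reads against 286, 296 and 335. Touch receptor genes gave 5 of 16 (31.2%), with the tubulin mec-12 at 2.14 ± 0.06, and guidance and adhesion genes 20 of 64 (31.2%), with the semaphorin smp-2 at 2.44 ± 0.04. With N2 at the upper end of its counting interval 9 of the 27 neuropeptides, 9 of the 18 receptors and 6 of the 12 chemoreceptors still reached 1.

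**Figure D3:**
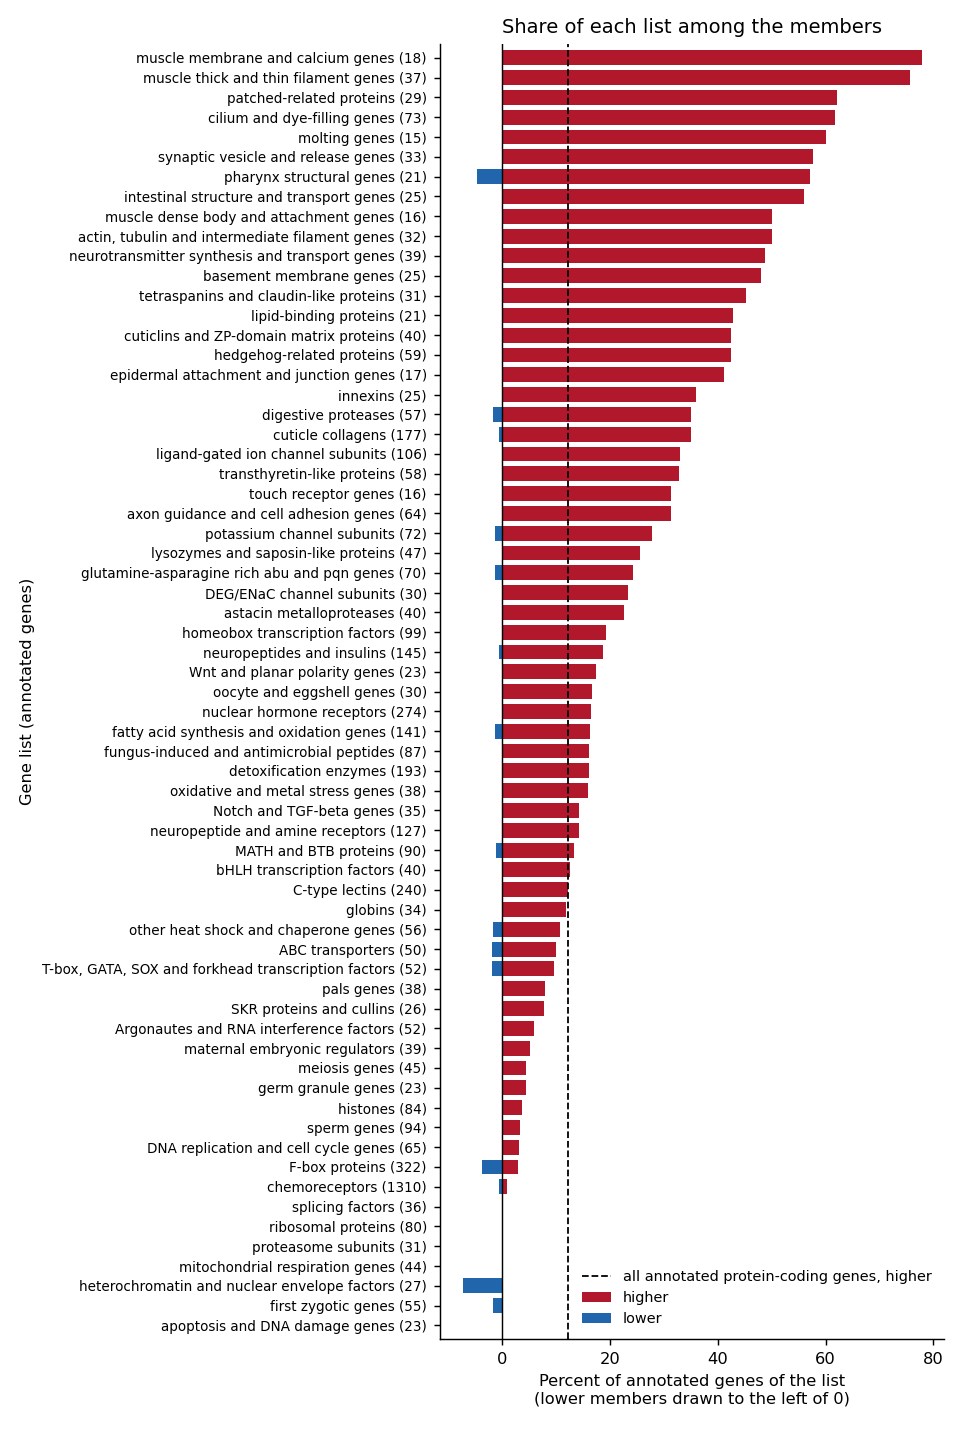
Share of annotated protein-coding genes of each list that were higher (red, to the right) or lower (blue, to the left) in the double mutant, in percent, for lists of at least 15 genes, with the number annotated in brackets. The dashed line is the 12.1% of all annotated protein-coding genes that were higher. Muscle, patched-related, cilium, molting and synaptic genes stand farthest above it, and the lists of ribosomal, proteasome, splicing and respiration genes stand at 0.

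Transcription factor families lay near or modestly above the genome-wide share. Homeobox genes gave 19 of 99 (19.2%), with zfh-2 at 2.51 ± 0.02 from 306 N2 reads and ceh-18 at 1.97 ± 0.07 from 12. Nuclear hormone receptors, a family greatly expanded in worms, gave 45 of 274 (16.4%), with nhr-41 at 2.31 ± 0.05. Helix-loop-helix factors gave 5 of 40, led by cky-1 at 2.60 ± 0.10. The T-box, GATA, SOX and forkhead factors gave 5 of 52, with egl-13 at 2.06 ± 0.23, and 1 lower, fkh-5, with 580 N2 reads against 238, 237 and 224. With N2 at the upper end of its counting interval 10 of the 19 homeobox genes, 24 of the 45 nuclear hormone receptors and 2 of the 5 helix-loop-helix factors still reached 1, and fkh-5 did not reach −1 at the lower end.

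Markers of embryo stage and of the mother gave the following values. Of 55 first zygotic genes none was higher and 1, sdz-6, was lower at −1.82, −1.49 and −1.60. Of 39 maternal regulators 2 were higher (5.13%, against 12.1% of all genes). These were the RNA-binding gene cey-2 with 3257 N2 reads against 5932, 6664 and 6582 and the polarity kinase par-1 with 1967 against 3648, 3585 and 3727. None of the 6 yolk protein genes, which the adult intestine expresses, was a member. Oocyte and eggshell genes gave 5 of 30 (16.7%). The highest was cpg-7, of the cpg gene family, with 23 N2 reads against 152, 179 and 183 and a mean of 2.75 ± 0.10. The eggshell proteoglycan cpg-1 had ratios of 1.55, 1.46 and 1.42 over 2948 N2 reads. For cpg-2 the ratios were 1.34, 1.29 and 1.15 over 983 reads. The eggshell gene cbd-1 had 4481 N2 reads against 8476, 8340 and 8528. Sperm genes gave 3 of 94 (3.19%, also below 12.1%), of which spe-15, a myosin, was the highest at 1.84 ± 0.09. Meiosis genes gave 2 of 45 (4.44%, likewise below 12.1%). Of these him-4 encodes the basement membrane protein named above, and him-19 stood at 1.40 ± 0.07. Of 16 markers set for muscle, pharynx, intestine, epidermis and neurons, 8 were higher: 3 of 3 for muscle, 3 of 3 for pharynx, 2 of 4 for neurons and none of 3 for intestine or for epidermis, which apart from the esterase gene ges-1 were marked by transcription factors. The part that embryo age within the stated 1 to 300 cells has in these results was not tested. The deposited tables hold selected genes, and a gene without a row has no value here.

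Cytoskeletal, signalling and RNA interference lists gave the following shares. Genes for actin, tubulin and intermediate filaments gave 16 of 32, the 3 highest being the intermediate filament genes ifa-1, ifp-1 and ifd-1 already named. Tetraspanins and claudin-like proteins, which sit in cell membranes and junctions, gave 14 of 31 (45.2%), with clc-6 at 2.03, 2.08 and 2.03, but 4 of the 14 reached 1 with N2 at the upper end of its counting interval. Wnt and planar polarity genes gave 4 of 23 (17.4%): the beta-catenin bar-1 stood at 1.60 ± 0.04 and the Wnt ligands egl-20 and lin-44 at 1.46 ± 0.21 and 1.42 ± 0.27. Notch and TGF-beta genes gave 5 of 35 (14.3%), with the Smad sma-4 at 2.02 ± 0.12 and the Notch ligands osm-11 and dsl-6 at 1.83 ± 0.19 and 1.69 ± 0.01. DEG/ENaC sodium channel subunits gave 7 of 30 (23.3%), with acd-2 at 3 N2 reads against 78, 63 and 74, and 4 of the 7 reached 1 at that end of the interval. Argonautes and RNA interference factors gave 3 of 52 (5.77%), among them the double-stranded RNA importer sid-2 at 1.78 ± 0.10 and wago-4 at 1.43 ± 0.07.

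Genes of defence and metabolism were spread over many families. Galectins gave 8 of 12 (66.7%), with lec-9 at 2.85 ± 0.10 and lec-5 at 2.68 ± 0.10. Lysozymes and saposin-like proteins gave 12 of 47, with spp-13 at 2.79 ± 0.12 and lys-1 at 2.58 ± 0.11. C-type lectins gave 29 of 240 (12.1%), a share equal to the background within rounding. Fungus-induced and antimicrobial peptides gave 14 of 87, headed by fipr-21 with 12 N2 reads against 131, 152 and 120. Transthyretin-like proteins gave 19 of 58 and lipid-binding proteins 9 of 21, where far-1, a fatty acid and retinol binder, had 624 N2 reads against 3859, 3891 and 3723. Detoxification enzymes gave 31 of 193 (16.1%), with the flavin monooxygenase fmo-4 at 2.74 ± 0.08. ABC transporters gave 5 of 50 higher, with abt-5 at 1.98 ± 0.06, and 1 lower, wht-6 at −1.22 ± 0.08. Fatty acid genes gave 23 of 141 higher and 2 lower, the acyl-CoA synthetase acs-15 at −2.06, −2.44 and −2.07 and the lipase lips-1 at −1.14, −1.68 and −0.61. With N2 at the upper end of its counting interval 18 of the 29 C-type lectins, 18 of the 31 detoxification enzymes and 3 of the 5 higher ABC transporters still reached 1. At the lower end 1 of the 2 lower fatty acid genes reached −1, and wht-6 did not.

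Genes of housekeeping functions were rare among the higher members, of which 12.1% of all genes were part. Only 0.57% of all genes were lower members, so the absence of these lists from that side says little. None of 80 ribosomal protein genes, 44 respiratory genes, 31 proteasome subunits, 36 splicing factors and 23 apoptosis and DNA damage genes was a member. None of them has a value here. Replication and cell cycle genes gave 2 of 65 (3.08%), namely cdk-14 at 1.49 ± 0.05 and cdc-50.B at 1.13 ± 0.19. Their symbols place them in the list, and their products are not core replication factors. Histone genes gave 3 of 84 (3.57%), with the linker histone hil-7 at 1.83 ± 0.07 from 994 N2 reads and the centromeric variant cpar-1 at 1.37 ± 0.10.

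On the lower side the inducible heat shock genes stood apart in size. These chaperones are made in quantity when proteins misfold and hold or refold them. All 9 annotated identifiers of the list were lower, with means from −4.79 to −2.51 and all libraries below −2.4. The hsp-70 transcript had 2543 N2 reads against 58, 71 and 77, ratios of −4.96, −4.75 and −4.65. The small heat shock gene hsp-16.2 had 3725 against 219, 272 and 291 and hsp-16.41 had 3534 against 349, 353 and 393. For hsp-16.1 and for hsp-16.48 the tables hold 2 near-identical copies each, with means of −3.47 and −3.50 for hsp-16.1 and of −3.20 and −3.32 for hsp-16.48. The near-identical hsp-70 family genes F44E5.4 and F44E5.5 had the most N2 reads of all members, with 145852 and 52736 N2 reads against 20324, 20876 and 21982 and 7256, 7645 and 7820. How reads were divided among such copies is not given in the sources used here, so their single values are uncertain and the 9 identifiers are not 9 independent genes. In met-2 libraries F44E5.4 and F44E5.5 stood at −0.03 and −0.04 and in lin-65 libraries at −2.37 for each, from the same N2 reads. Among 56 other chaperone genes the direction was mixed. The J-domain co-chaperone dnj-13 was lower, with 11333 N2 reads against 3775, 4347 and 4203, and 6 were higher, including the small heat shock genes hsp-43 at 3.04 ± 0.06, hsp-12.2 at 2.42 ± 0.07 and hsp-12.1 at 1.94 ± 0.18.

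F-box genes, which encode substrate adaptors of ubiquitin ligases, were split. Of 322 annotated genes 12 were lower (3.73%, against 0.57% of all genes) and 9 were higher (2.80%, against 12.1%). The lower genes were 5 of the fbxb, 4 of the fbxc and 3 of the fbxa kind, and 5 of the 12 lay in the left span of chromosome II. Of the 9 higher genes 7 were fbxa. How many of the 322 belong to each kind was not counted, so a difference between kinds cannot be read from these numbers. The lowest were fbxb-97 with 363 N2 reads and ratios of −1.54, −1.36 and −1.32, fbxb-92 with 510 against 144, 166 and 150 and fbxa-218 with 36 against 7, 4 and 11. Among the lower genes 6 of 12 passed −1 in every library, and 4 of 12 still reached −1 with N2 at the lower end of its counting interval. MATH and BTB proteins, adaptors of another ligase, gave 12 of 90 higher (13.3%), near the 12.1% of all genes. The list held 1 lower gene (1.11%), bath-34 at −1.38, −1.57 and −1.17. Of 1310 chemoreceptors 8 were lower, a share of 0.611% beside 0.57% of all genes, with sre-48 at 22 N2 reads against 1, 2 and 2, srz-4 at 77 against 11, 14 and 23 and srh-195 at 69 against 18, 18 and 14. At the unfavourable end of the N2 interval 3 of the 8 lower chemoreceptors and 4 of the 12 higher MATH and BTB genes still passed the threshold. The ribonuclease H gene rnh-1.3 was the lowest member outside the mutated and heat shock genes, with 111 N2 reads against 5, 8 and 9 and ratios of −2.95, −2.67 and −2.58. Of the 130 lower members 87 belonged to no list.

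The members' values in the single mutants, taken against the same N2 reads, are given side by side. Over the 2508 higher members the library medians were 1.62, 1.12 and 1.14 in met-2, 0.806, 1.012 and 0.802 in lin-65, and 1.60, 1.59 and 1.61 in the double mutant. Library 1 of met-2 stood above its replicates, beside the double mutant. Of these members 2507 had a mean above 0 in met-2 and 2450 in lin-65, and 1875 and 938 reached 1. Over the 130 lower members the medians of the means were −0.57 in met-2 and −1.03 in lin-65, against −1.22 in the double mutant. By list, muscle filament genes had medians of 1.65 in met-2 and 0.99 in lin-65, cuticle collagens 1.81 in met-2 and 0.52 in lin-65, cilium genes 1.36 in met-2 and 1.02 in lin-65 and fungus-induced peptides 1.72 in met-2 and 0.29 in lin-65. For collagens the libraries overlapped, with medians of 2.21, 1.56 and 1.70 in met-2 and 1.80, 1.84 and 1.72 in the double mutant.

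**Figure D4:**
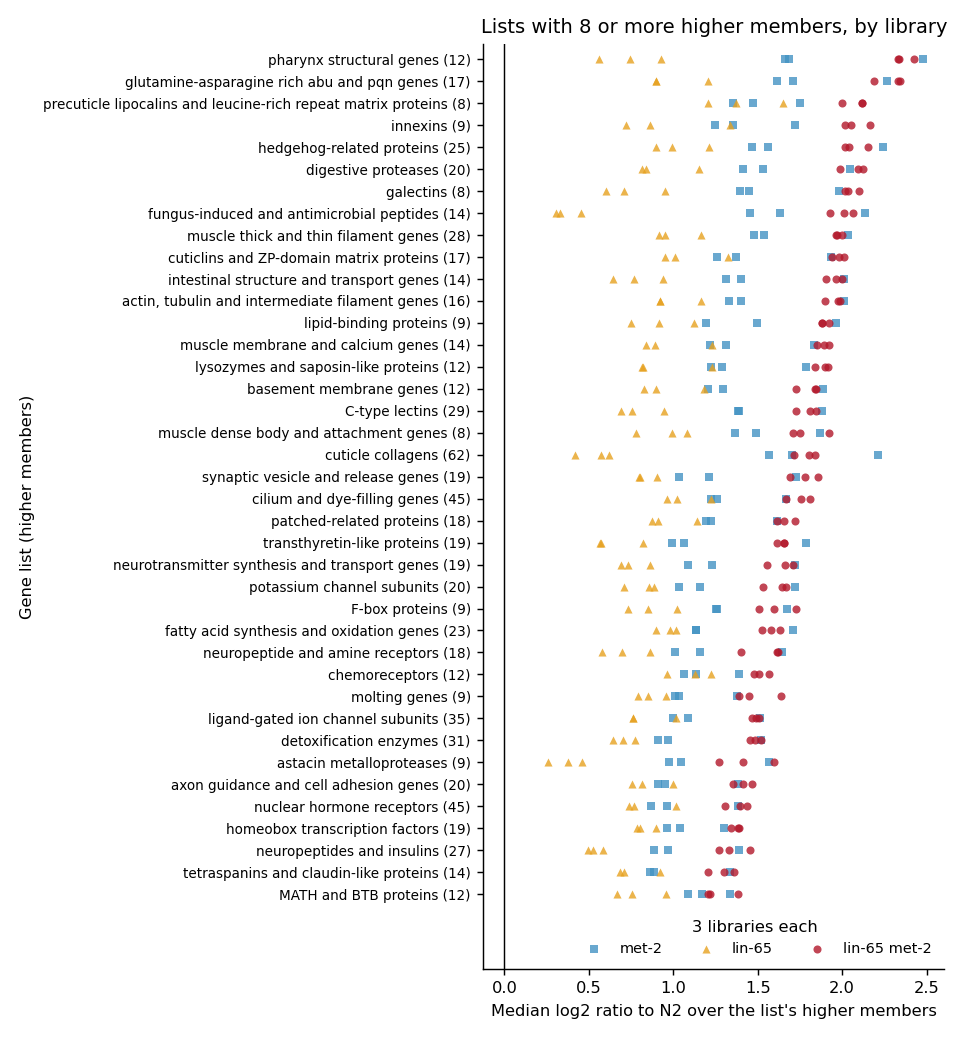
Median log2 ratio to N2 over the higher members of each list (horizontal) in each of the 9 mutant libraries, for lists with at least 8 higher members, whose number is in brackets. In most lists the 3 double-mutant libraries (red circles) lie to the right of all lin-65 libraries (orange triangles) and of 2 met-2 libraries (blue squares), while met-2 library 1 lies among or beyond them.

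The double mutant was tested against each single mutant with limma over all 2949 genes and 9 libraries, a difference in which N2 cancels. Because members were chosen on double-mutant values, their differences lean away from 0 and the counts are descriptions of these genes. Against lin-65, 2190 of 2949 genes (74.3%) were higher and 136 (4.61%) lower at an adjusted p under 0.05, and among the higher members 2110 (84.1%) were higher. Against met-2, 348 genes (11.8%) were higher and 145 (4.92%) lower, and among the higher members 311 (12.4%) were higher. The count of genes higher than met-2 moved with every library of these strains: it was 1762 without met-2 library 1, 102 without met-2 library 2 and 68 without met-2 library 3. It was 93, 77 and 62 without double-mutant libraries 1, 2 and 3. The count of genes lower than met-2 was 93 and 91 without double-mutant libraries 2 and 3 and 198 without met-2 library 1. With each library centred on its own median the counts became 143 higher and 272 lower against met-2, and 637 higher and 486 lower against lin-65. That centring also removes any general difference between mutants. Of the lower members 72 of 130 were lower than met-2 and 35 lower than lin-65.

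Among higher members 272 were higher than both single mutants at a limma adjusted p under 0.05, or 10.8%, beside 273 of all 2949 genes (9.26%). These calls depend on the libraries in the comparison with met-2 as given above. Ranked by the smaller of their differences, the leading 5 were ZK1025.3, moa-1, R155.3, WBGene00020118 and Y38A10A.2. For moa-1 the double-mutant libraries had 113, 124 and 118 reads against 18 in N2, a mean of 2.49 against 0.76 in met-2 and 0.97 in lin-65. Its limma difference from met-2 was 1.73 (SE 0.18, adjusted p = 2.19e-06), and from lin-65 1.52 (SE 0.18, adjusted p = 5.29e-06). R155.3 stood at 2.94 against 1.43 and 1.02, and WBGene00020118 at 2.96 against 1.24 and 1.71. ZK1025.3 stood at 3.49 against 1.90 in met-2 and 0.95 in lin-65, with limma differences of 1.59 (SE 0.20, adjusted p = 2.19e-05) and 2.54 (SE 0.20, adjusted p = 1.77e-07).

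Other members stood close to 1 of the single mutants. Both sri-62 and Y37E11AL.1 were also high in lin-65, at 3.51 and 3.52, and differed from the double mutant there by 0.09 (SE 0.18, adjusted p = 0.638) and 0.06 (SE 0.17, adjusted p = 0.734) by limma, but stood at 2.01 and 1.05 in met-2. The antimicrobial peptide genes cnc-4 and nlp-29 were the reverse, at 2.35 and 2.22 in the double mutant, 2.33 and 1.80 in met-2 and −0.43 and −0.21 in lin-65. Heat shock genes stood nearer to their lin-65 than to their met-2 values, with hsp-70 at −4.69 in lin-65 and −0.94 in met-2. The limma difference of hsp-70 from met-2 was −3.85 (SE 0.21, adjusted p = 7.61e-10) and from lin-65 −0.10 (SE 0.21, adjusted p = 0.659). Both copies of hsp-16.48 were below lin-65 as well, with limma differences of −0.78 (SE 0.21, adjusted p = 0.00316) and −0.60 (SE 0.21, adjusted p = 0.0147). For hsp-16.1, hsp-16.2 and hsp-16.41 limma differences from lin-65 lay between −0.43 and −0.47, with adjusted p from 0.0527 to 0.0725. Several eggshell and maternal transcripts had means between those of the single mutants. For cpg-1 the means were 0.53 in met-2, 1.48 in the double mutant and 2.02 in lin-65, and for cey-2 0.10, 1.25 and 1.79. For cpg-7 and par-1 the double-mutant mean was instead the highest. In met-2, the double mutant and lin-65 cpg-7 stood at 2.25, 2.75 and 1.14. Its limma differences were 0.50 (SE 0.22, adjusted p = 0.104) from met-2 and 1.61 (SE 0.22, adjusted p = 2.43e-05) from lin-65. In the same order par-1 stood at 0.93, 1.17 and 0.53. Its limma differences were 0.24 (SE 0.17, adjusted p = 0.267) from met-2 and 0.65 (SE 0.17, adjusted p = 0.00304) from lin-65. The limma difference of cey-2 was 1.15 (SE 0.17, adjusted p = 0.000133) from met-2 and −0.53 (SE 0.17, adjusted p = 0.00907) from lin-65.

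By limma 5 higher members were below both single mutants, as were 32 of all 2949 genes (1.09%). C55C3.3 stood at 2.91, 2.69 and 3.08 in the double mutant against means of 4.11 in met-2 and 3.91 in lin-65, a limma difference of −1.21 (SE 0.17, adjusted p = 9.31e-05) and −1.02 (SE 0.17, adjusted p = 0.000118). WBGene00021034 and 3 members of the enu-3 family, enu-3.2, enu-3.3 and enu-3.5, made up the rest. These 3 enu-3 genes gave 1.56, 1.24 and 1.19 in the double mutant, 2.12, 1.81 and 1.93 in met-2 and 2.09, 1.65 and 1.73 in lin-65. Another higher member of the family, enu-3.6, stood at 1.47 against 2.05 in met-2 and 1.83 in lin-65. Its limma difference was −0.58 (SE 0.18, adjusted p = 0.0347) from met-2 and −0.36 (SE 0.18, adjusted p = 0.0685) from lin-65. Among lower members 17 were below both single mutants, led by R03D7.2 with 728 N2 reads, ratios of −2.15, −2.18 and −2.28 and limma differences of −1.59 (SE 0.16, adjusted p = 2.24e-06) from met-2 and −0.76 (SE 0.16, adjusted p = 0.000796) from lin-65, and by rnh-1.3.

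Higher members were denser on the X chromosome than on autosomes. Of 2731 annotated protein-coding genes on X 545 were higher (19.96%), against 1877 of 17242 on the autosomes together (10.9%), where single chromosomes ranged from 9.43% on III to 11.98% on IV. The sizes differed little, with a median of 1.63 on X and 1.57 on autosomes. Within X the left and centre spans held 21.8% and 23.5% and the right span 14.2%. With each chromosome cut into 3 equal spans, the outer spans of the autosomes, which hold most of the methylated chromatin, gave 10.2% and the centres 12.01%. Lower members were denser in the outer spans, 78 of 10674 genes (0.731%) against 27 of 6568 in the centres (0.411%), and 25 of the 78 lay in the left span of chromosome II. Higher members were longer than the genome as a whole, with a median exonic length of 1568 bases against 1161 for all protein-coding genes and 1153 for lower members.

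**Figure D5:**
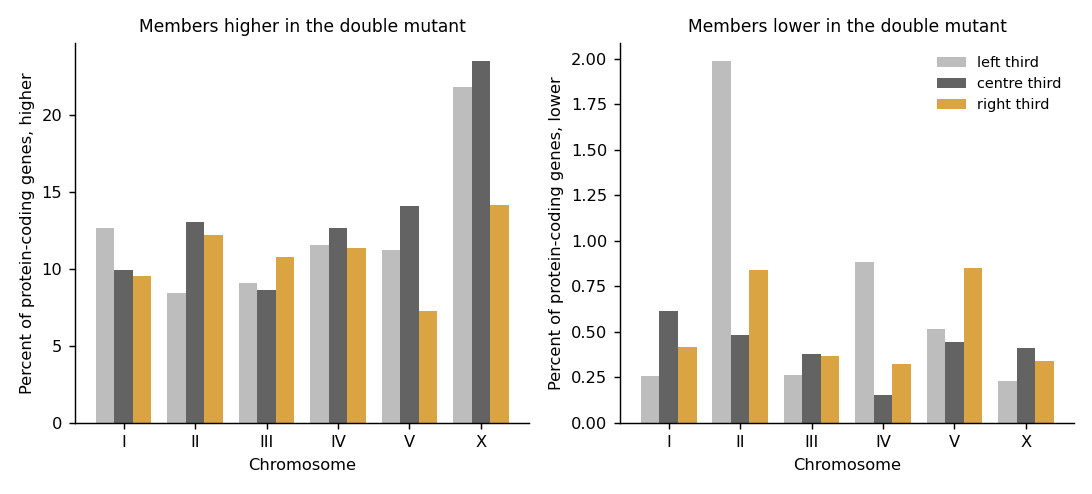
Percent of annotated protein-coding genes that were higher (left panel) or lower (right panel) in the double mutant, for the left, centre and right of 3 equal spans of each chromosome. All spans of X lie above the highest autosomal span, 14.1% in the centre of V, and the left span of II has the largest share of lower genes.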

How the data were processed

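Total RNA from early embryos was depleted of ribosomal RNA and sequenced after TruSeq total RNA library preparation, per the labels' protocols, although the labels give the molecule as genomic DNA. The deposited tables hold, for each of 9 mutant libraries, a log2 ratio to N2 made by the authors; N2 has 3 libraries by its labels and 0 columns. The submitters' processing notes name edgeR and the genome build ce10. As for the aligner, annotation, strand setting and rule that selected the tables' genes, each is not given in the sources used here.

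From the log2 values the whole reads of each gene and library were recovered: 100% of the 2949 genes gave whole numbers within 0.01 read. Library totals over all genes cannot be had from tables of selected genes, so depth is given by the added constant, worth 7.38 to 7.76 reads in double-mutant, 6.89 to 7.47 in met-2, 8.01 to 9.82 in lin-65 libraries and 9.29 in N2. Identifiers were matched to Ensembl 115 (WBcel235), where 2869 of 2949 were found, for symbols, biotypes and gene order. Since ce10 is an earlier build, no coordinates are printed. Chromosomes were cut into 3 equal spans. The deposited values needed no further scaling, and 0 columns were left unused.

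Differences of the double mutant from each single mutant were tested by fitting the deposited log2 values of 9 libraries (limma 3.58.1, R 4.3.3), with Benjamini-Hochberg adjustment over all 2949 genes and a limit of 0.05. The test was checked on simulated data drawn with the spread of the double-mutant libraries. That check held no library-wide shift like that of met-2 library 1, so it does not cover the comparison with met-2. Python 3.11.15, pandas 2.3.3, scipy 1.17.1 and matplotlib 3.10.9 served for the rest. Gene by gene, same-numbered libraries of the double mutant and each single mutant did not deviate together (correlations from −0.04 to 0.03). This measure leaves out shifts of a whole library, so pairing by number is not excluded. The main fit used none.

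Members and the 73 gene lists were chosen with earlier results of these data known, and the chemoreceptor list was trimmed of other families after its values were seen. The genes named were lin-65 and met-2, the 12 highest and 12 lowest means, the 3 highest or lowest of each list, the 2 nearest each threshold on either side, the 3 largest SDs, and the 5 leading genes above or below both single mutants. Outside that rule, and after their values were seen, unc-54, myo-3, sqt-3, dpy-17, emb-9, let-2, cbd-1, nhr-184, nhr-96, cpr-9 and oac-34 were named. So were cpg-19, cpg-23, enu-3.6 and the genes listed as markers or as neighbours. Alternatives changed the threshold, the summary over libraries, the tables used, the library scaling and the limma settings, and left out each library. The added constant, a minimum of N2 reads, the N2 counting interval and limma voom on recovered reads were added after seeing the data.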

Additional observations from a re-analysis of the deposited data

How the results depend on the processing

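The count of 2508 higher members was 639 at a threshold of 2 and between 2442 and 2456 without a double-mutant library. The count of 130 lower members was 73 with every library past −1, 19 at a threshold of 2, 56 with N2 at the far end of its counting interval, and 116 to 120 without a library. With a smaller added constant 146 of 238 named means moved by more than 1 SD, and with the libraries shifted to a common median 0 did. Leaving out 1 library or taking the median cannot move a mean of 3 libraries by 1 SD, so this measure says nothing about those alternatives. Of 923 recomputed limma differences of named genes 77 lost their call; 0 changed sign in either set. With N2 at the far end of its counting interval 28 of 146 list counts moved by more than 1.5 times. Lists of genes with few reads shrank when at least 10 N2 reads were asked for, chemoreceptors from 12 to 1 and neuropeptides from 27 to 9, whereas the 9 heat shock genes stayed lower under each alternative run.

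Against met-2 the 348 higher genes became 218 with only both mutants in the fit, 1992 with array weights, 143 with centred libraries, 28 at a difference of at least 1, 567 with voom and 62 to 1762 without a library; the 145 lower became 245 with array weights, 272 centred, 57 at a difference of at least 1, 85 among genes of the double-mutant table and 91 to 198 without a library. Against lin-65 the 2190 higher genes became 637 centred, 708 at a difference of at least 1 and 1879 to 2198 without a library; the 136 lower became 486 centred, 8 at a difference of at least 1, 49 in the double-mutant table and 92 to 111 without a library. Voom on recovered reads gave 153 lower than met-2, 2187 higher and 134 lower than lin-65. The cause was not tested for these shifts. With a replicate block on the replicate numbers, whose pairing is not known, the counts were 248 and 134 against met-2 and 2124 and 109 against lin-65. Promoter motif shares were not run. Precision at low levels is limited by the N2 baseline, which had fewer than 10 reads in 638 higher members.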

Other observations

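Higher members often lay beside one another. Of the 2422 protein-coding higher members 1054 (43.5%) had a higher member as an adjacent protein-coding gene, against 4399 of all 19985 protein-coding genes (22.01%) with such a neighbour, and for lower members the shares were 22.8% and 1.12%. Neighbours can be copies of one family, share an operon or overlap, and how reads of overlapping genes were counted was not stated. The longest run, on chromosome V, held 9 genes, of which 8 were nuclear hormone receptors, from nhr-184 (1.04 ± 0.32) to nhr-96 (1.12 ± 0.28), with N2 reads of 11 and 25. A run of 5 on X held the precuticle lipocalins lpr-3, lpr-6, lpr-5 and lpr-4 with apt-9, and 4 collagens, col-167 to col-170, lay side by side on X. Lower members had 1 run longer than 2 genes, the 4 copies of hsp-16.1 and hsp-16.48 on V.

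Of the genes above both single mutants, moa-1, R155.3 and WBGene00020118 carry neighbouring identifiers on chromosome III. Double-mutant reads were 113, 124 and 118 for moa-1 against 18 in N2. For R155.3 they were 251, 258 and 289 against 34, and for WBGene00020118 223, 208 and 242 against 27. Of the genes past the threshold that only the single-mutant tables held, the cathepsin B-like protease cpr-9 had the highest mean, 1.72 ± 0.15, with 40 N2 reads against 109, 143 and 128, and the acyltransferase-like oac-34 was the single lower one at −1.33 ± 0.25.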
